A study of Mus musculus with 6 samples.

Results

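The genes of MHC class II antigen presentation were followed through RNA-seq of intestinal adenomas from mice with a germline mutation of the tumour suppressor *Apc*. The 7 members were set by gene symbol and not by a cut on their values, but earlier results of these data were known when they were chosen. They are *H2-Aa*, *H2-Ab1*, *H2-Eb1*, *H2-DMa*, *H2-DMb1*, *Cd74* and *Ciita*, of 34866 genes in the count table, and each was found once by its Ensembl identifier. All 7 passed edgeR's filter on low counts, as did 16536 genes in all.

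MHC class II molecules display peptides from proteins that a cell has taken up and digested, and CD4+ T cells read them. Each molecule is a pair of an alpha and a beta chain, which is built with the invariant chain in its groove and later exchanges a remnant of that chain for a peptide with the help of H2-DM. Dendritic cells, macrophages and B cells make them constitutively, and epithelial cells of the intestine can make them in response to interferon-gamma. One coactivator, CIITA, is needed for most of this transcription, and it is recruited to short promoter elements named X and Y by factors that are themselves present in most cells.

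The study compared adenomas of 3 Apc1322T/+ and 3 ApcMin/+ libraries, both on the C57BL/6J strain and at an age of 100 to 120 days. Apc1322T encodes a longer Apc truncation that keeps part of its function, and ApcMin a shorter one. The adenomas were excised whole, and RNA from a few extractions was typically pooled per sample, so each library mixes tumour epithelium with stroma and immune cells. Fewer cells of a type and less RNA per cell cannot be told apart in such tissue.

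The libraries held between 23132461 and 33518324 estimated counts, and levels are given as CPM, which are counts scaled by library size, here with TMM factors. The smallest signal taken as detectable was 3 counts, or 0.0895 to 0.13 CPM depending on the library. No library was a copy of another. The p-values measure the spread between these samples. Fold changes are ApcMin over Apc1322T. A gene was called at an adjusted p under 0.01, the threshold of the study. By the quasi-likelihood test of edgeR, adjusted after Benjamini-Hochberg, 0 of the 16536 genes were called, and 2495 genes (15.1%) had an unadjusted p under 0.05.

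All 7 class II genes were higher on average in ApcMin adenomas, by between 1.64-fold for *H2-DMa* and 2.28-fold for *H2-Aa*, but none passed the threshold. Their median log2 fold change was 0.96, beside a median of 0.017 over all genes tested. A log2 fold change over 0.5 in this direction was found in 14.6% of all genes, and in all 7 members. The percentage of all genes called at the threshold was 0. Of the members, *H2-Aa*, *H2-Eb1*, *H2-DMb1* and *Cd74* had an unadjusted p under 0.05, where 7.49% of all genes had one and were higher in ApcMin. DESeq2, the test used in the study, called 0 members as well, beside 194 genes (1.11%). Each of the 7 was lowest in Apc1322T replicate 1 and highest in ApcMin replicate 1, and for 6 of the 7 the genotypes overlapped.

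**Figure D1:**
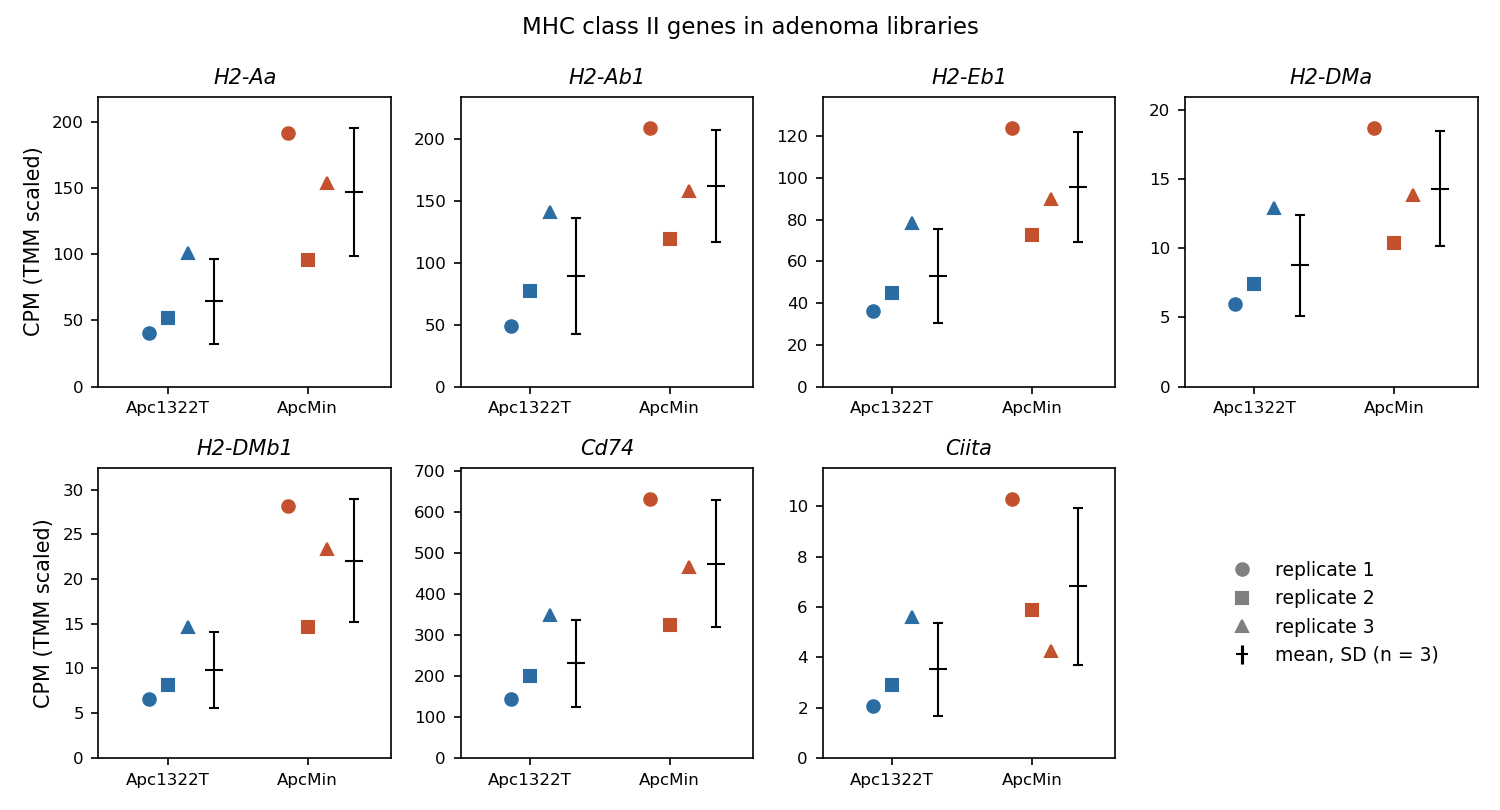
CPM of each class II gene (vertical axes, linear from 0) in the 3 Apc1322T libraries (blue) and the 3 ApcMin libraries (red), with marker shapes for replicate numbers and black bars for mean and SD over 3 libraries. Every gene is lowest in Apc1322T replicate 1 and highest in ApcMin replicate 1, and Apc1322T replicate 3 reaches or passes the lowest ApcMin library for each gene except *H2-DMb1*.

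*H2-Aa* and *H2-Ab1* encode the alpha and the beta chain of I-A, and *H2-Eb1* the beta chain of I-E. On chromosome 17 of GRCm38, *H2-Ab1* spans 34257689 to 34269419 on the forward strand, *H2-Aa* 34282744 to 34287823 on the reverse strand and *H2-Eb1* 34305867 to 34316674 on the forward strand. *H2-DMa* (34119541 to 34139101) and *H2-DMb1* (34153072 to 34160230) lie in the same cluster, both on the forward strand. *Cd74* is on chromosome 18 (60803848 to 60812652) and *Ciita* on chromosome 16 (10480059 to 10528418).

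The promoters of *H2-Aa* and *H2-Eb1* are shown for letters of the X and Y elements, through which CIITA is known to act on class II genes. Binding and promoter activity were not measured, and the part of these letters in the parallel levels of the chain genes was not tested. The 150 bases before each start site are given 5′ to 3′ on the strand of the gene, as annotated by RefSeq on GRCm38.p6 (chr17:34287824-34287973, reverse strand, for *H2-Aa* and chr17:34305717-34305866, forward strand, for *H2-Eb1*). Capitals mark the letters GNAACT, part of the X element, on either strand and TGATTGG, the Y element with its inverted CCAAT.

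H2-Aa: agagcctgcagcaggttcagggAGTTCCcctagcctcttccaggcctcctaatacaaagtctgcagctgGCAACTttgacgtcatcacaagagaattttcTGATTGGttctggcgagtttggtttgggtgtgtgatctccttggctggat
H2-Eb1: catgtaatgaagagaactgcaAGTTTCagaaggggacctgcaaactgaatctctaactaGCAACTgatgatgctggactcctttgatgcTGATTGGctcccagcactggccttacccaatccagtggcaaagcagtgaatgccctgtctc

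In *H2-Aa* the letters GCAACT stand 81 to 76 bases upstream of the start and TGATTGG 50 to 44 bases upstream, with 25 bases between them. In *H2-Eb1* the same pair stands at 91 to 86 and at 61 to 55 bases, with 24 bases between. *H2-DMb1* holds GTAACT at 94 to 89 and TGATTGG at 63 to 57 bases, again with 25 between. Of the 7 members 4 matched the RefSeq promoter table, and 3 of these held the pair on the gene strand with between 10 and 40 bases in the gap. Neither of the 2 start sites of *H2-DMa* held it in the 250 bases searched. Over 32817 promoter windows of 250 bases, 37.3% held GNAACT and 7.22% TGATTGG on either strand, and 0.232% held the pair. The letters were chosen after the sequences had been seen, and a match describes the letters only.

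Among the chains, *H2-Aa* was at 40.3, 52.2 and 101 CPM in Apc1322T replicates 1, 2 and 3, and at 192, 95.7 and 154 CPM in ApcMin replicates 1, 2 and 3. Only ApcMin replicate 2 fell within the Apc1322T range, just under Apc1322T replicate 3. The log2 fold change of 1.19 (SE 0.41) had an adjusted p of 0.302 by the quasi-likelihood test of edgeR, adjusted after Benjamini-Hochberg, with a raw p of 0.0256, and 495 genes (2.99%) had a larger increase. *H2-Ab1* was at 49.2, 77.2 and 141 CPM in Apc1322T and at 209, 119 and 158 CPM in ApcMin. Here too Apc1322T replicate 3 lay between ApcMin replicates 2 and 3 (log2 fold change 0.87, SE 0.41, edgeR adjusted p 0.366). *H2-Eb1* was at 36.0, 44.7 and 78.5 CPM in Apc1322T and at 124, 72.5 and 90.0 CPM in ApcMin. It showed the same order of libraries as the I-A chains, with a log2 fold change of 0.85 (SE 0.34, edgeR adjusted p 0.321). The spread within a genotype was large for all 3 chains, with a range of 2.18-fold (*H2-Eb1*) to 2.86-fold (*H2-Ab1*) among the Apc1322T libraries and of 1.72-fold (*H2-Eb1*) to 2.0-fold (*H2-Aa*) among the ApcMin libraries.

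The partner of *H2-Eb1*, the I-E alpha chain, is represented in this table by the pseudogene *H2-Ea-ps*, and mice of the C57BL/6 haplotype are known not to display I-E for lack of that chain. *H2-Ea-ps* had 0 counts in each of the 6 libraries, which allows a level of up to 0.0895 to 0.13 CPM. *H2-Eb1* was thus read at 36.0 to 124 CPM in libraries with no count of a transcript for its partner.

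*Cd74* encodes the invariant chain, which occupies the groove of a new class II molecule and guides it to the endosome. It was at 144, 199 and 350 CPM in Apc1322T and at 633, 325 and 467 CPM in ApcMin. ApcMin replicate 2 lay below Apc1322T replicate 3, and the other libraries were separated. The log2 fold change was 1.04 (SE 0.39), with an edgeR adjusted p of 0.311.

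*H2-DMa* and *H2-DMb1* encode the chains of H2-DM, which edits the peptides bound to class II. *H2-DMa* was at 5.98, 7.41 and 12.9 CPM in Apc1322T and at 18.7, 10.4 and 13.8 CPM in ApcMin, the smallest difference of the 7 (log2 fold change 0.71, SE 0.34, edgeR adjusted p 0.371). *H2-DMb1* was at 6.64, 8.13 and 14.6 CPM in Apc1322T and at 28.2, 14.6 and 23.4 CPM in ApcMin. It was the only member whose genotypes did not overlap, where 11% of all genes had every ApcMin library above every Apc1322T library, and the gap was between 14.62 and 14.63 CPM. With DESeq2's size factors the order of these libraries turned, at 14.69 and 14.63 CPM. Its log2 fold change of 1.17 (SE 0.37) had the lowest p of the members, 0.0169, with an adjusted p of 0.286 by edgeR's quasi-likelihood test. An exact two-sided permutation test gave 0.1 for *H2-DMb1*, the smallest p that 3 against 3 libraries allow, and 0.2 for each of the other 6 members.

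*Ciita*, the coactivator, had the lowest level, at 2.05, 2.9 and 5.6 CPM in Apc1322T and at 10.3, 5.9 and 4.27 CPM in ApcMin. ApcMin replicate 3 lay below Apc1322T replicate 3, where for each of the other 6 members ApcMin replicate 3 was the second highest library. Its log2 fold change of 0.96 (SE 0.47) had an edgeR adjusted p of 0.378, and the libraries held between 56 and 368 of its counts. *Ciita* shares 329 exonic bases with *Dexi* on the other strand, and *H2-DMa* shares 360 with *Brd2*. The kit keeps the strand, but the strand setting of the quantification is not given in the sources used here.

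The members kept close to one another from library to library. The correlation of log2 CPM over the 6 libraries was between 0.968 and 0.999 for the 15 pairs without *Ciita* and between 0.865 and 0.934 for the 6 pairs with it. With each genotype centred on its own mean, the pairs without *Ciita* were still at 0.959 or more, and those with it at 0.751 to 0.883. Leaving out Apc1322T replicate 1 and ApcMin replicate 1, which hold the extremes, the 4 other libraries gave at least 0.927 without *Ciita* and 0.549 to 0.734 with it. The points of each correlation are the same 6 libraries, so depth and tissue makeup are shared by all genes in them. The spread within a genotype was wider than for most genes, as the median SD of log2 CPM over the members was 0.57 beside 0.22 over all genes tested, and 15.7% of genes exceeded the former.

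**Figure D2:**
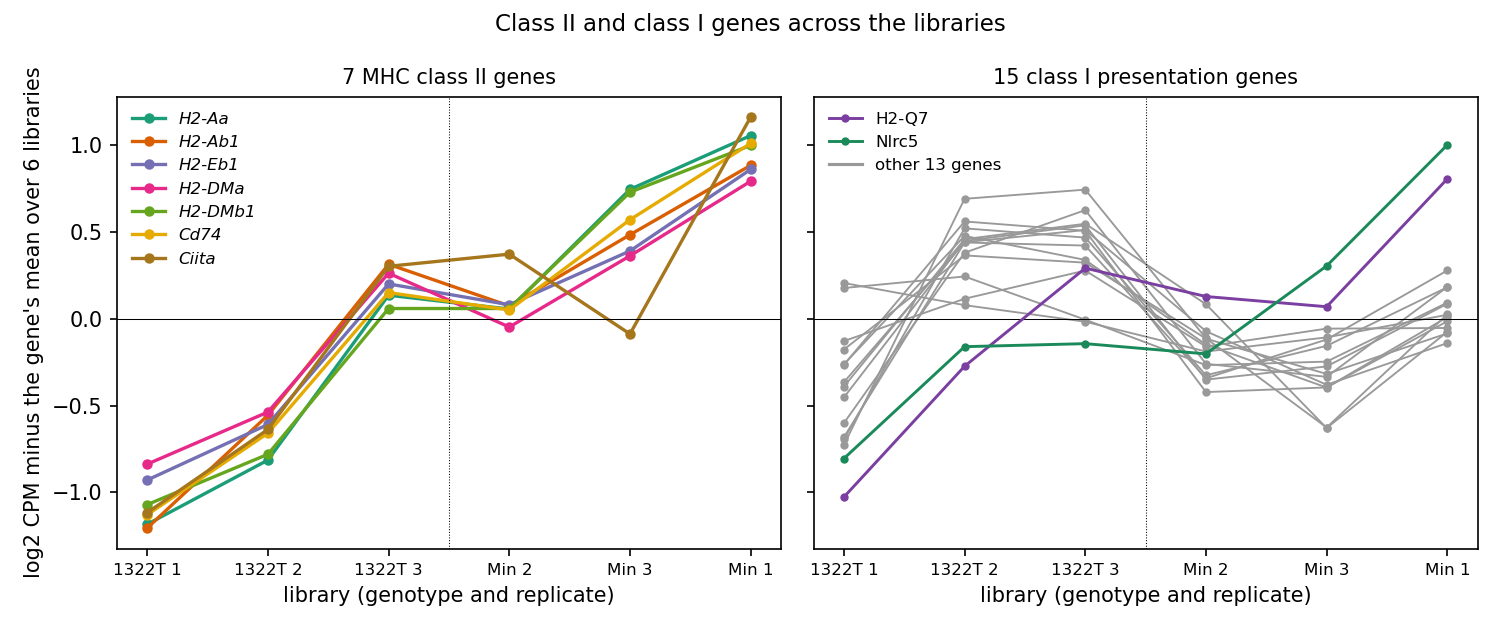
Log2 CPM of each gene minus its mean over the 6 libraries (vertical axis, prior count of 2 for the class II genes and none for the class I genes), for the 7 class II genes (left) and the 15 class I presentation genes (right). Lines join the libraries of one gene, with Apc1322T libraries left of the dotted line. The class II lines run together except for *Ciita* in ApcMin replicates 2 and 3, and most class I lines peak in Apc1322T replicates 2 and 3.

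Levels of different genes were compared per kilobase of annotated exon. *Cd74* was the most abundant, with a mean of 210 CPM per kilobase (SD 106, n = 6), followed by *H2-Ab1* with 48.9 (SD 22.4), *H2-Eb1* with 38.2 (SD 16.4) and *H2-Aa* with 27.9 (SD 15.3). *H2-DMb1* had 9.48 (SD 5.02), *H2-DMa* 3.35 (SD 1.35) and *Ciita* 0.542 CPM per kilobase (SD 0.306). This order was the same within each of the 6 libraries, although the ranges of mean and SD over libraries overlapped for 4 of the 6 neighbouring pairs, all but *Cd74* with *H2-Ab1* and *H2-DMa* with *Ciita*. With the longest coding transcript as the length, *H2-Aa* (93.8) stood above *H2-Eb1* (44.5), so the order of these chains depends on the length used.

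Within a library the proportions of the members were steadier than their levels. The ratio of *Cd74* to *H2-Ab1* per kilobase stayed between 3.81 and 4.62, a 1.21-fold range, while both genes varied more than 4-fold. The ratio of *Ciita* to *H2-Ab1* was between 0.0101 and 0.0133 in 5 libraries and 0.00726 in ApcMin replicate 3. *H2-DMa* to *H2-DMb1* was 0.439, 0.445 and 0.431 in Apc1322T and 0.324, 0.347 and 0.288 in ApcMin. The H2-DM ratio was thus lower in all 3 ApcMin libraries, and it stayed so when the reads of *H2-DMb1* and its near copy *H2-DMb2* were added (0.364 to 0.409 against 0.262 to 0.321). *H2-DMb1* shares 31.4% of its 31-base words with *H2-DMb2*, so that the division of reads between them is uncertain. *H2-Aa* to *H2-Eb1* was 0.573, 0.598 and 0.658 in Apc1322T and 0.789, 0.676 and 0.878 in ApcMin, higher in all 3. Of 8 ratios computed these were the only ones without overlap, each with an exact two-sided permutation p of 0.1 before any adjustment.

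The other class II genes were scarce. *H2-Ob*, a chain of H2-DO, which restrains H2-DM chiefly in B cells, was at 0.404, 0.285 and 0.306 CPM in Apc1322T and at 1.09, 0.708 and 0.79 CPM in ApcMin. Its genotypes did not overlap, as in 11% of all genes, and its log2 fold change of 1.36 (SE 0.38) exceeded that of every member, with an edgeR adjusted p of 0.279. *H2-Ob* passed the filter on low counts only through its ApcMin libraries, so its direction was not independent of the filter. The alpha chain *H2-Oa* was at 0.348 to 0.81 CPM with a log2 fold change of 0.31 (SE 0.46), and *H2-DMb2* at 0.514 to 3.02 CPM with 0.63 (SE 0.64). *H2-Eb2* held between 3 and 27 counts and was not tested.

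Genes that work on class II in endosomes were split in direction. Of 10 tested, 4 were higher and 6 lower in ApcMin, 0 were called, and their median log2 fold change was -0.06. *Ctsl*, a protease of the endosome, was at 195 to 299 CPM in Apc1322T and 361 to 515 CPM in ApcMin (log2 fold change 0.82, SE 0.22, edgeR adjusted p 0.278). The groups did not overlap for *Ctsl*, but its correlation with the mean profile of the members over the 6 libraries was 0.44. *Ctss*, the protease that trims the invariant chain in antigen-presenting cells, was at 91.3 to 146 CPM and at 96.2 to 191 CPM with a log2 fold change of 0.05 (SE 0.31). *Ctsb* (-0.16) and the membrane protein *Lamp1* (-0.2) were the most abundant of the list.

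Of the factors that bind the X and Y elements or act there as coactivators, 9 were tested, 4 higher and 5 lower, with a median log2 fold change of -0.09 and 0 called. *Rfx5*, a subunit of the X-binding complex, was at 12 to 14.2 CPM in Apc1322T and 13.1 to 15.5 CPM in ApcMin. *Rfxank*, another subunit of that complex, had the largest difference (-0.55, SE 0.24, edgeR adjusted p 0.334), and the abundant *Ep300*, a coactivator, and *Creb1* had -0.15 and 0.07.

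The 7 tested genes of the interferon-gamma receptor and its signalling chain all had a negative log2 fold change, with a median of -0.31 and 0 called. *Ifngr2*, a receptor subunit, had -0.38 (SE 0.15), *Jak1* -0.16 (SE 0.083) and *Irf1*, a transcription factor of the response, -0.58 (SE 0.36). *Ifng* itself held between 0 and 2 counts in each library, at or under the smallest detectable signal.

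Genes that interferon-gamma induces were mixed, 10 higher and 4 lower of 14, with a median of 0.52 and 0 called. The chemokine *Cxcl9* was at 0.954, 2.04 and 2.71 CPM in Apc1322T and at 14.7, 2.91 and 6.45 CPM in ApcMin. It had the largest difference of the list (log2 fold change 2.08, SE 0.67, edgeR adjusted p 0.287) and followed the members with a correlation of 0.94. *Irgm2* went the other way without overlap, with -0.4 (SE 0.084, edgeR adjusted p 0.257), and *Irgm1* was at -0.06. Of the 14 genes, 5 had every ApcMin library above every Apc1322T library, as did 11% of all genes, and 1 had every one below. The share of all genes with every ApcMin library below is not given here. DESeq2 called 1 gene of the list, *Iigp1*, at an adjusted p of 0.00879, where its share over all genes higher in ApcMin was 0.714%.

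Class I presentation genes, which present peptides from inside the cell, showed another pattern across the same libraries. Of 15, 2 were higher and 13 lower in ApcMin, with a median log2 fold change of -0.34 and 0 called. *B2m*, the shared light chain of class I, was at 331, 885 and 918 CPM in Apc1322T and at 558, 507 and 355 CPM in ApcMin. *B2m* was thus lowest in Apc1322T replicate 1, as the class II genes were, but highest in Apc1322T replicate 3 and not in ApcMin replicate 1. *Calr* (-0.27) and *Pdia3* (-0.18), chaperones of class I loading, were the most abundant. Those higher in ApcMin were *Nlrc5*, the class I counterpart of *Ciita* (log2 fold change 0.8, SE 0.38), and *H2-Q7* (0.61, SE 0.37), and they followed the class II members with correlations of 0.9 and 0.95, beside a median of 0.04 over the list.

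**Figure D3:**
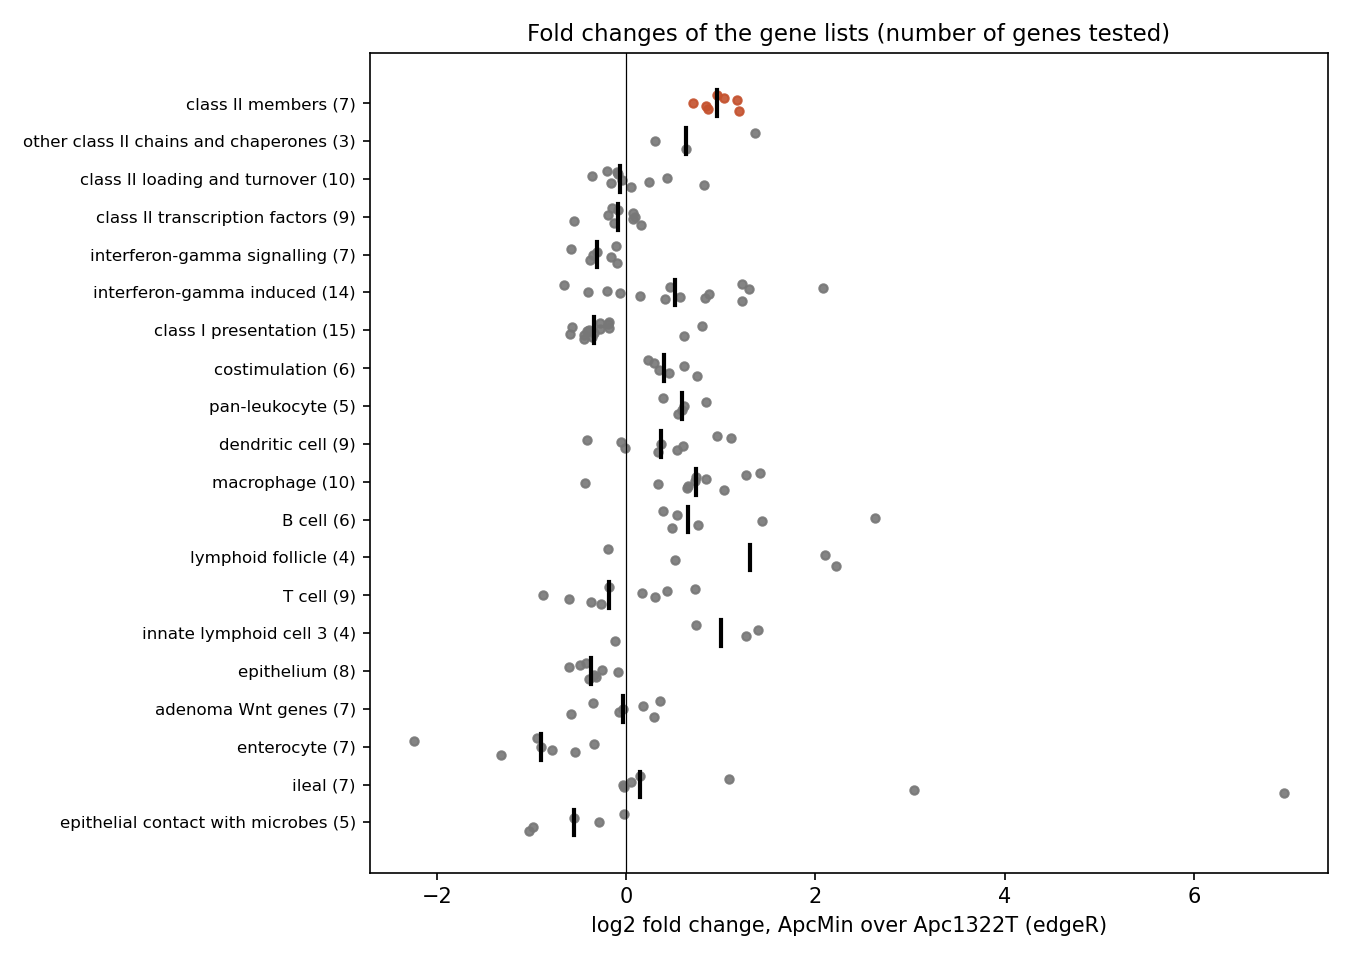
Log2 fold change, ApcMin over Apc1322T, of every tested gene (points) in the 7 class II genes (red) and in 19 other gene lists (grey), with the median of each list as a black bar and the number of genes tested in brackets. The class II genes lie between 0.71 and 1.19, class I presentation and epithelium are mostly below 0, and no gene shown was called by edgeR.

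Cells that carry class II were read through marker lists. The 5 pan-leukocyte markers summed to 67, 77.6 and 83.6 CPM in Apc1322T and to 165, 94.9 and 84.4 CPM in ApcMin, all 5 had a positive log2 fold change (median 0.59), and 0 were called. ApcMin replicate 1 had the highest sum of these 5 markers, and it was also the highest library for every class II gene. The macrophage sum was highest there too (277 CPM), but the T cell sum was not (27.3 CPM, beside 43 CPM in Apc1322T replicate 3). *Laptm5* and *Coro1a* had 0.61 (SE 0.27) and 0.59 (SE 0.25), and *Cd53* 0.85 (SE 0.41). The part of these markers in the class II difference was not tested. Without ApcMin replicate 1 the median log2 fold change of the members was 0.64 and 0 of 7 had an unadjusted p under 0.05. Without Apc1322T replicate 1 the median was 0.69, again with 0 of 7.

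The 10 macrophage markers summed to 141 to 172 CPM in Apc1322T and 167 to 277 CPM in ApcMin, 9 were higher, and the median log2 fold change was 0.74 with 0 called. The complement gene *C1qa* had 0.73 (SE 0.26), the scavenger receptor *Cd163* 1.41 (SE 0.69) and *Mertk* -0.43 (SE 0.46). *Cd163* passed the filter on low counts only through its ApcMin libraries, so its direction was not independent of the filter. None of the defining macrophage markers was at 0 in all libraries.

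The dendritic cell list, with 9 of 10 tested, 6 higher and 3 lower, summed to 89.8 to 104 CPM in Apc1322T and 75.1 to 85.5 CPM in ApcMin. Most of this sum was *Irf8*, and without it the list summed to 13.9 to 18.8 CPM in Apc1322T and 18.1 to 23.8 CPM in ApcMin. *Irf8* was at 75.6 to 85.2 CPM in Apc1322T and 54.6 to 64.8 CPM in ApcMin (log2 fold change -0.41, SE 0.097, edgeR adjusted p 0.257). The share of all genes that were likewise lower without overlap is not given here. *Itgax*, which encodes CD11c, had 0.34 (SE 0.2) and followed the members at a correlation of 0.92. *Ccr7*, a receptor for migration to lymph nodes, had 1.11 (SE 0.45), and *Zbtb46*, a marker of classical dendritic cells, was at 1.22 to 1.84 CPM with -0.01 (SE 0.29).

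B cell markers were scarce, and 5 of the 11 had too few counts to be tested. The 6 tested all had a positive log2 fold change (median 0.65) with 0 called, and the sum over all 11 was 9.63 to 10.9 CPM in Apc1322T and 15.4 to 18.7 CPM in ApcMin. *Blk* had 2.63 (SE 0.88), from 0 to 0.257 CPM in Apc1322T, and the more abundant *Cd79a* and *Cd37* had 0.49 and 0.39. *Blk* passed the filter on low counts only through its ApcMin libraries, so its direction was not independent of the filter. The B cell transcription factor gene *Pax5* had 0, 1 and 0 counts in Apc1322T and 14, 29 and 4 in ApcMin. Of 10 genes of lymphoid follicles, where B cells gather, 4 had enough counts to be tested, 3 higher and 1 lower in ApcMin. The sum over all 10 overlapped between genotypes, at 20.2 to 25.1 CPM in Apc1322T and 21.8 to 31.4 CPM in ApcMin. *Ccl21a* was at 0.76 to 1.49 CPM in Apc1322T and 3.41 to 6.81 CPM in ApcMin (log2 fold change 2.1, SE 0.38, edgeR adjusted p 0.257, DESeq2 adjusted p 0.000248), and *Cxcl13* had 2.22 (SE 0.42). *Bcl6* had -0.19. The part of B cell and follicle RNA in the class II difference was not tested. The median correlation of a list with the members' mean profile over the 6 libraries was 0.81 for lymphoid follicle (4 genes), 0.76 for pan-leukocyte, 0.66 for macrophage, 0.65 for interferon-gamma induced, 0.6 for B cell, 0.5 for dendritic cell and 0.33 for T cell genes, beside 0.02 over all genes tested. The remaining lists ranged from 0.74 for other class II chains and chaperones (3 genes) to -0.51 for epithelium. Among them were innate lymphoid cell 3 (0.62, 4 genes), costimulatory (0.53) and ileal genes (0.35).

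T cell markers, whose cells lack class II in the mouse, summed to 16 to 43 CPM in Apc1322T and 18.7 to 27.3 CPM in ApcMin. The list had 4 higher and 5 lower of 9 (median -0.18), with *Lck* at -0.18 and *Cd8a* at -0.88. Of innate lymphoid cell 3 markers, 3 of 4 were higher, with *Kit*, which mast cells and pacemaker cells also express, at 1.39 (SE 0.25) and a DESeq2 adjusted p of 7.88e-05. Costimulatory genes were higher in 6 of 6 (median 0.4), among them *Cd80* (0.75), *Cd274* (0.61) and *Icosl* (0.23), with 0 called.

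Epithelial markers were abundant in every library of this tissue, labelled intestinal adenoma, and lower in ApcMin for 8 of 8 genes (median -0.37, 0 called). They summed to 12900 to 15100 CPM in Apc1322T and 10500 to 12200 CPM in ApcMin. *Krt8* had -0.34 (SE 0.14), *Epcam* -0.39 (SE 0.12) and *Vil1* -0.6 (SE 0.3). *Fabp6*, which encodes a bile acid binding protein of the ileum, was at 0.477 to 0.618 CPM in Apc1322T and at 127, 82.8 and 0.98 CPM in ApcMin. Its DESeq2 adjusted p was 0.000248, and its correlation with the members' mean profile was 0.62. ApcMin replicate 1 was the highest library for *Fabp6* and for every class II gene. Every class II gene except *Ciita* was lower in ApcMin replicate 2 than in replicate 3, the reverse of *Fabp6*. *Slc10a2*, also of the ileal list, was at 3.96, 5.51 and 8.54 CPM in Apc1322T and at 65.6, 77.9 and 4.46 CPM in ApcMin. Its log2 fold change was 3.04 (SE 0.98, edgeR adjusted p 0.288), with overlap. The part of ileal RNA in the class II difference was not tested. Median log2 fold changes were -0.9 for 7 enterocyte genes (*Apoa4* -0.9, *Apoa1* -0.78, *Lct* -2.24), 0.15 for 7 ileal genes (*Slc51a* -0.02, *Mep1a* 1.09), -0.03 for 7 Wnt genes of adenomas (*Nkd1* -0.03, *Notum* 0.18, *Lgr5* -0.58) and -0.55 for 5 genes of contact with microbes (*Reg3b* -0.98, *Reg3g* -1.02), with 0 called by edgeR.

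The summed level of the 3 chain genes was set against these lists within each library, a step added after the values were seen. The chains summed to 126, 174 and 320 CPM in Apc1322T and to 525, 287 and 403 CPM in ApcMin, a mean log2 difference of 1.04. Per unit of pan-leukocyte RNA the ratios were 1.87, 2.24 and 3.83 in Apc1322T and 3.18, 3.03 and 4.77 in ApcMin, so that the genotypes overlapped with a mean log2 difference of 0.5. Against the macrophage list the difference was 0.62, and against the B cell list 0.24, both with overlap. Against the dendritic cell list it was 1.28 with every ApcMin library above every Apc1322T library, but this rested on *Irf8*, without which it was 0.62 with overlap (8.82 to 17 in Apc1322T, 14 to 22.2 in ApcMin). Leaving out the most abundant gene of the macrophage list, *Mertk*, gave 0.36, and leaving out that of the pan-leukocyte and the B cell list, *Laptm5* and *Cd79a*, gave 0.51 and 0.1, all with overlap. Against T cell, epithelial and class I sums the difference was 1.29, 1.38 and 1.38, with the genotypes apart, and 1.28, 1.38 and 1.39 without the most abundant gene of each. Whichever list is used, these ratios do not tell which cells carried the RNA.

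**Figure D4:**
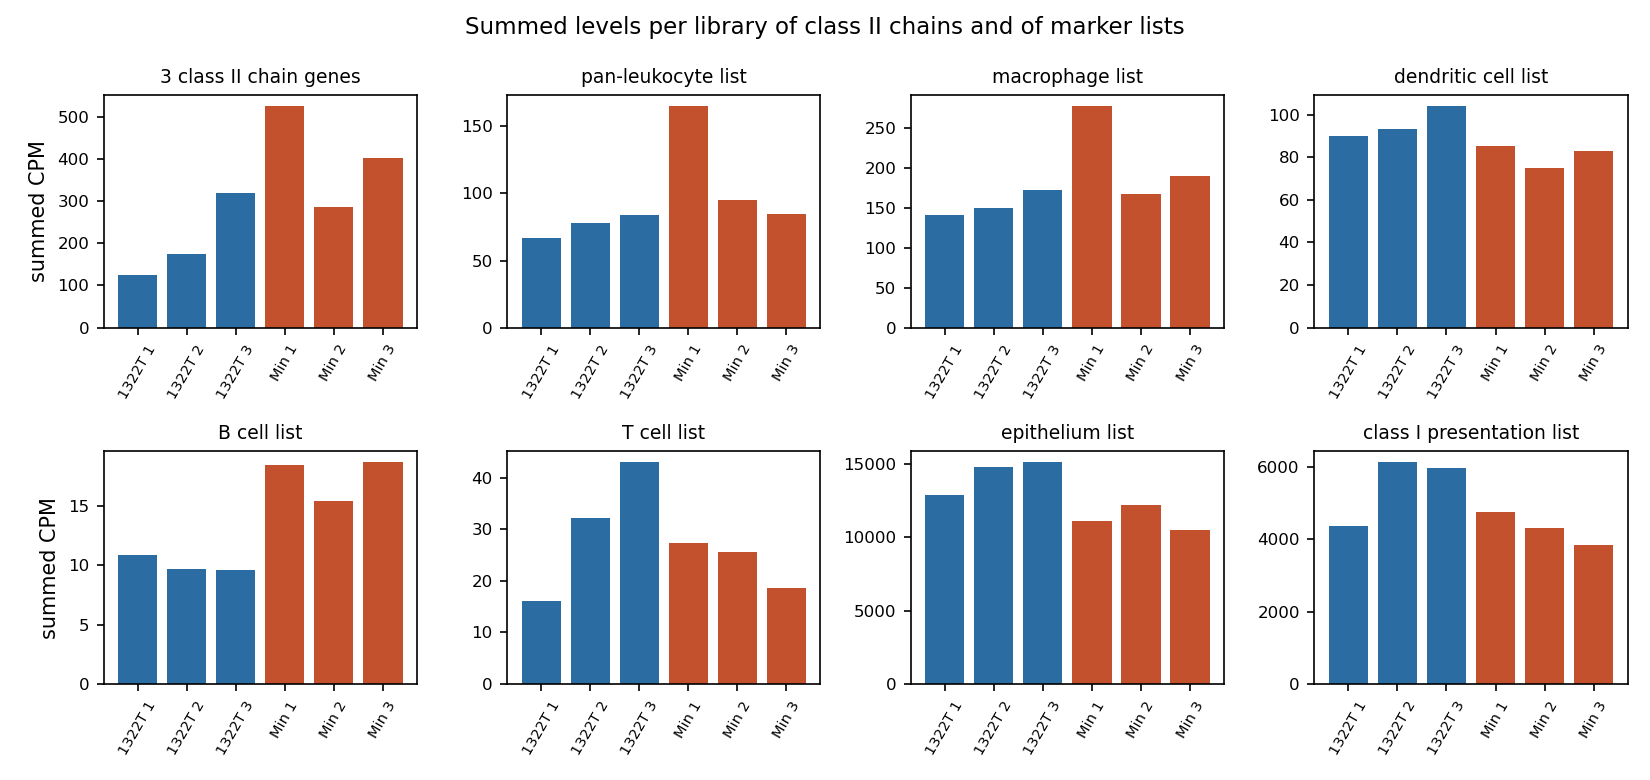
Summed CPM (vertical axes, linear from 0) of the 3 class II chain genes, of 6 cell marker lists and of the class I presentation list in each library, Apc1322T in blue and ApcMin in red. ApcMin replicate 1 is highest for the chains (525), the pan-leukocyte list (165) and the macrophage list (277), and the epithelial sums are all lower in ApcMin.

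The genes most like the members over the 6 libraries were listed by their correlation with the members' mean centred log2 CPM, among 14699 genes of at least 1 CPM on average. They were *Cilp* (0.9811), *Nup210l* (0.9793), *Ccdc15* (0.9726), *Wdfy4* (0.9656), *Srpx* (0.9644), *Pik3cd* (0.9609), *Otulinl* (0.9608), *Tab1* (0.9592), *Ifi203* (0.9577) and *Meis1* (0.9572). *Wdfy4*, known from cross-presentation by dendritic cells, was at 2.23 to 3.77 CPM in Apc1322T and 4.25 to 6.23 CPM in ApcMin, with a log2 fold change of 0.84 (SE 0.29, edgeR adjusted p 0.301). *Pik3cd* encodes a kinase subunit of leukocytes and had 0.52 (SE 0.24). *Cilp*, a matrix protein gene, had 1.72 (SE 0.53), and *Tab1* had a log2 fold change of only 0.13 (SE 0.089). With 6 points shared by all genes, 80 genes exceeded a correlation of 0.9, and the list describes these libraries only.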

How the data were processed

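Per the labels and the study's methods, polyadenylated RNA of adenomas was prepared with the NEBNext Ultra II Directional kit from 1 µg of total RNA and sequenced as single-end reads of 50 bases. The authors assigned the reads to GRCm38.p6 transcripts with Salmon and deposited estimated counts (expected counts) per gene, not normalised, which are divided among near copies such as *H2-DMb1* and *H2-DMb2*. The annotation release is not given in the sources used here. Symbols were taken from GENCODE M21 for 34652 of 34866 genes.

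Estimated counts were rounded, filtered with filterByExpr (minimum count 10, total 15) and scaled by TMM. ApcMin was compared with Apc1322T by edgeR 4.0.16 (robust quasi-likelihood, Benjamini-Hochberg over 16536 genes, threshold 0.01) in R 4.3.3. SEs came from the log2 fold change and F statistic, and log2 CPM used a prior count of 2. Single values were compared by exact permutation over 20 assignments. DESeq2 1.42.0, limma 3.58.1, other scalings and filters, each library left out and a replicate block were alternatives. On simulated counts of these libraries edgeR recovered 87% of genes changed by a log2 of 1.5 among 16200 tested, and 93% of those changed by 3, with 2 false calls. DESeq2 recovered 97% and 99% among 16525 tested, with 34 false calls. The changed genes were all above the median level, and the counts were drawn with edgeR's own dispersions. No change as small as those of the members (0.71 to 1.19) was simulated, so these shares do not give the power to call the members.

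The members and gene lists were chosen with earlier results of these data known. Besides the members, named genes were the 2 most abundant of each list, the one with the largest log2 fold change, those past the threshold and the 10 most alike. Some genes that this rule names are not reported here. *Ctss*, *Rfx5*, *Zbtb46*, *Slc10a2*, *B2m*, *H2-Q7*, *Iigp1*, *H2-Oa* and genes with few counts were added after their values were seen. The limits at 3 counts cover counting error only. Same-numbered libraries come from different mice.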

Additional observations from a re-analysis of the deposited data

How the results depend on the processing

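The 7 members kept a positive log2 fold change and stayed short of the threshold in each of 98 values under 14 alternatives for each, counting the libraries left out in turn. The number of genes called by edgeR was 0, and it became 194 with the DESeq2 Wald test, 1 without a filter on low counts and 1 at an adjusted p under 0.05, with 0 members among those at 0.01. On simulated counts, drawn with edgeR's own dispersions, DESeq2 made 34 false calls and edgeR 2. The cause of the difference on the real counts was not tested. DESeq2 gave *H2-Aa* and *H2-DMb1* adjusted p-values of 0.0491 and 0.0474. With each library left out, between 0 and 1 genes were called, and the median log2 fold change of the members ranged from 0.64 without ApcMin replicate 1 to 1.46 without Apc1322T replicate 3. The members with an unadjusted p under 0.05 numbered 4 with all libraries, between 0 and 7 with one left out, 7 by DESeq2 and 2 without a filter. Without ApcMin replicate 1, Apc1322T replicate 1 or Apc1322T replicate 2 there were 0, and without ApcMin replicate 3 there were 2. The genes with an unadjusted p under 0.05 numbered 2495, and between 1180 and 4117 with one library left out. The members without overlap between genotypes numbered 1 with TMM, 0 with DESeq2's size factors, 2 with upper-quartile scaling and 4 with library totals, a comparison added after the data were seen. With TMM 11% of all genes had every ApcMin library above every Apc1322T library. That share is not given for the other scalings, so their counts of members cannot be set against it. By rank correlation, 3 of the 10 most alike genes were shared with the list given.

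Same-numbered libraries did not deviate together (correlations of -0.014, 0.164 and -0.286), and no library correlated best with its own number. In the paired fit with the replicate block 0 genes were called, 2 members had an unadjusted p under 0.05, and the median log2 fold change of the members was 0.98. Depth limits the 5 B cell genes, *Ifng* and *H2-Eb2* that had too few counts to be tested.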
